A study of Mus musculus with 12 samples.

Results

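The comparison described here is the non-additive part of the response of newborn mouse forebrain to 2 alleles given together. Genes were set against a prediction, the additive sum, in which the change of the double genotype from Control equals the change of GS plus the change of GB on the log2 scale, so that the fold changes of both alleles multiply. The contrast (GBS minus GS) minus (GB minus Control) measures the distance from that sum. Of 19938 genes with a probe set of their own, 14195 were bright enough to test, and 47 differed from the sum at an adjusted p under 0.05 (limma, Benjamini-Hochberg over all genes tested). Above the sum lay 46 genes, or 0.324% of those tested, and below it lay 1, or 0.00704%. At an unadjusted p under 0.05 the same limma fit placed 687 genes above and 471 below.

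Each of 4 genotypes was measured on 3 arrays, 1 per biological replicate, at postnatal day 0. GS carried hGFAP-cre and a heterozygous SmoM2Fl allele, GB carried hGFAP-cre and a heterozygous Ctnnb1(ex3)Fl allele, and GBS carried hGFAP-cre with both. Control held both floxed alleles but no Cre, so the alleles stayed unrecombined there. The Cre driver is a human GFAP promoter, active in radial glia and their descendants, so any cell outside that lineage kept its alleles unrecombined. GBS tissue is labelled tumor and the other 3 genotypes forebrain, while the titles of all 12 samples say forebrain. A difference in the tissue taken would coincide with GBS and cannot be told apart from its genotype. Pooling, sex and the cells taken from each pup are stated in none of the labels used here. Since Cre is present in 3 genotypes and missing from Control, an effect of Cre itself would enter the contrast with its sign turned, and it cannot be told apart from a response of that shape.

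SmoM2 is a mutant Smoothened that signals without sonic hedgehog (SHH). In the normal pathway the receptor PTCH1 holds Smoothened inactive until SHH binds it, after which GLI transcription factors switch on targets that include Ptch1 itself. Loss of exon 3 from Ctnnb1 removes the residues through which a complex built on AXIN and APC marks beta-catenin for destruction, and the stabilised protein joins LEF and TCF factors on WNT target genes. Many of those targets, among them Axin2, Wif1, Apcdd1 and Notum, encode inhibitors of the WNT pathway. Both pathways drive division of neural progenitors, and WNT signals from the dorsal midline also pattern the cortex.

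Wif1, Lef1, Axin2, Tnfrsf19 and Apcdd1, all known as WNT pathway genes, stood above the additive sum, and so did Ptch1, Bmp4, Fst, Cxcr4, Emx2, Mcm6, Cyp1b1 and Tec. The distance from the sum in the 46 genes ran from 0.69 to 2.71 on the log2 scale, with a median of 1.35. In fold terms GBS exceeded the product of the single responses 1.62-fold to 6.56-fold, with a median of 2.55-fold. The sum itself predicted little: its fold over Control had a median of 1.20 across the 46 genes and a range of 0.876 to 3.06, where the observed fold had a median of 3.33 and a range of 1.69 to 16.2. The share of the GBS change that lay beyond the sum had a median of 82.3%, with 40.2% in Ptch1 at the low end and 116% in Fbxo32 at the high end.

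**Figure D1:**
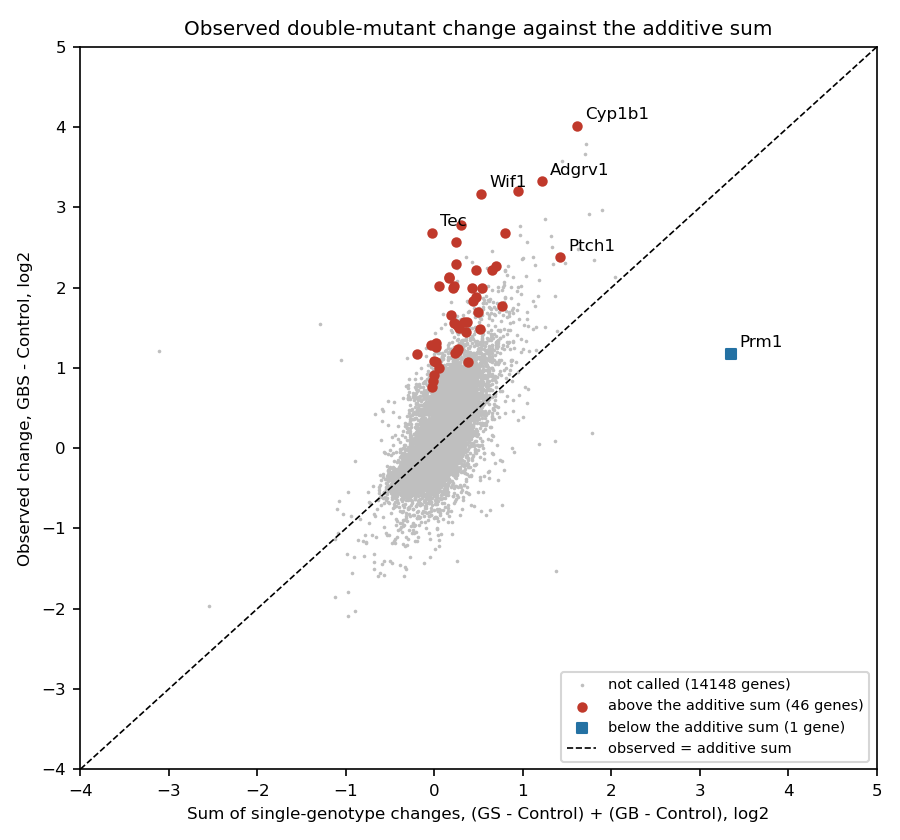
Each point is 1 of 14195 genes, with the sum of the GS and GB changes from Control on the x axis and the observed GBS change on the y axis, both log2. The 46 genes called above the dashed line of equality cover sums of -0.19 to 1.61, and Prm1, the 1 gene called below it, has the largest predicted sum among the 47.

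In all 46 genes the 3 GBS arrays lay above the 9 others, an arrangement found in 13.6% of the genes tested. The gap from the lowest GBS array to the highest other array was 0.507 to 2.19, with a median of 0.980. The contrast is made of those same arrays, so this describes the shape and adds no evidence. The filter asked for at least 3 bright arrays, so the GBS arrays alone could admit a gene. In 5530401A14Rik, Tex15, A730049H05Rik, Egfl6 and Cavin2 the highest of the other arrays read 5.22, 5.57, 5.85, 5.90 and 6.00. Hoxa2 (5.57 to 6.27) and En2 (5.48 to 6.23) were too dim to test. The GS, GB and Control values of those called genes are thus dim. Others were in or near the same range. Their highest other array read 6.18 in Pde5a, 6.24 in Layn, 6.31 in Pde3a, 6.34 in Gm10400, and 6.39 in Tll1 and Tec. Whether small changes with 1 allele were missed there was not tested. All 46 were higher in GBS than in Control, where 11.0% of tested genes were higher and 4.35% lower. They were also higher than in GS, where 3.56% of all were higher and 1.51% lower, and than in GB, where 9.6% were higher and 3.12% lower. With 1 allele alone few passed the test. Ptch1 was the 1 gene of the 46 called in GS against Control, a contrast in which 0.0211% of genes were called higher, and at an unadjusted p under 0.05 limma placed 4 of the 46 and 508 of all genes higher. In GB against Control limma called 0 of the 46 and 0 of all genes (0.0%), and at an unadjusted p under 0.05 it placed 18 of the 46 and 129 of all genes higher. The GB changes were positive in 44 of the 46, with a median of 0.24 and a top value of 1.33 in Cyp1b1, while the GS changes were positive in 20, with a median of -0.01.

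In 16 of the 46 the GB arrays also stood apart, above every GS and Control array, which 0.387% of tested genes do together with the GBS separation. They were Wif1, Lef1, Axin2, Apcdd1, Tnfrsf19, Emx2, Cyp1b1, Adamts19, Egfl6, Crispld1, Cavin2, Pde3a, Gpc4, Rgs9, 2700046A07Rik and 5530401A14Rik. In Ptch1 and Heg1 it was the GS arrays that stood between, a shape of 1.2% of tested genes. The remaining 28 genes had overlapping GS, GB and Control arrays or a mixed order, and a raised level in GBS. Adgrv1 and Egfl6 had Control below all other arrays, as 0.74% of tested genes did. In 0 of the 47 did all GS and GB arrays lie above all GBS and Control arrays, found in 0.0352% of tested genes.

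**Figure D2:**
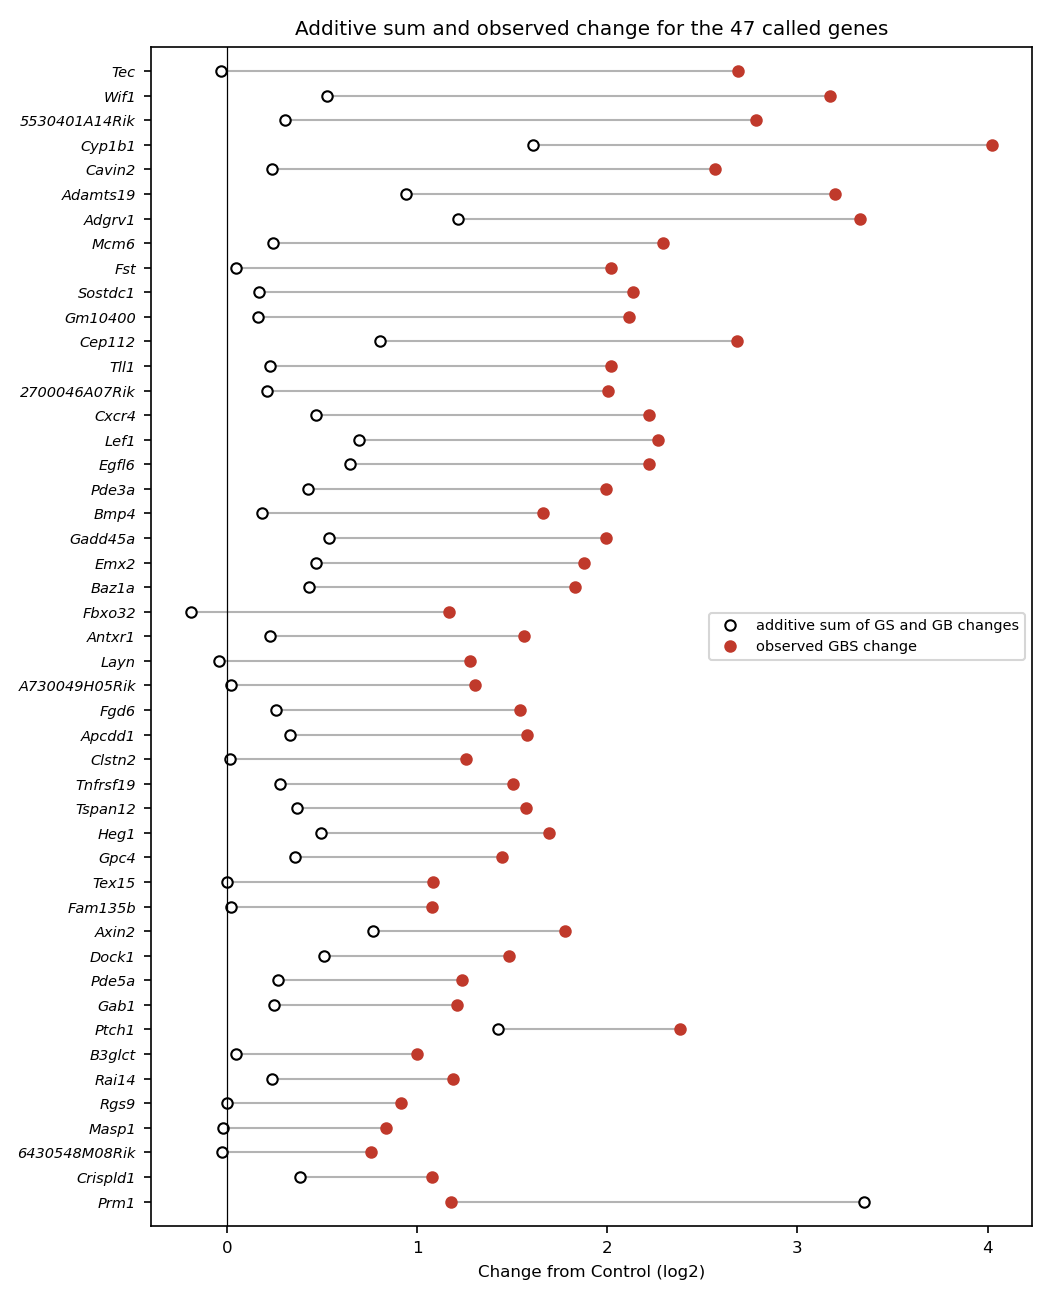
For each of the 47 genes the open circle is the additive sum of the GS and GB changes and the filled circle the observed GBS change from Control, in log2 units, ordered by contrast. The filled circle lies to the right for 46 genes and to the left for Prm1; Cyp1b1 has the largest observed change, 4.02.

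The strongest of the WNT genes was Wif1, a secreted protein that binds WNT ligands and blocks them. Wif1 read 9.67, 10.05 and 10.004 in GBS, 7.66, 7.24 and 7.49 in GB, 6.48, 6.44 and 6.70 in GS, and 6.60, 6.76 and 6.84 in Control. GB arrays were raised, GS arrays were at or under Control, and GBS stood far above both with no overlap. The alleles multiplied would give 1.44-fold over Control where 9.01-fold was seen, and the contrast was 2.64 ± 0.20 (SE, adjusted p = 0.000576, limma). Its call held in every fit that left out 1 array (highest adjusted p 0.00513).

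Lef1, a DNA-binding partner of beta-catenin, read 9.60, 10.26 and 9.66 in GBS, 8.41, 8.33 and 8.44 in GB, 7.43, 7.53 and 7.37 in GS, and 7.43, 7.43 and 7.85 in Control. The contrast was 1.57 ± 0.24 (adjusted p = 0.0261, limma). Axin2, a scaffold of the destruction complex and a standard readout of WNT signalling, read 8.66, 9.04 and 8.85 in GBS, 7.88, 7.58 and 7.95 in GB, 7.15, 7.16 and 7.01 in GS, and 6.995, 7.04 and 7.18 in Control. Both genes had the Wif1 order, with GB in the middle and GS level with Control, and no GBS array came near the others. The contrast of Axin2 was 1.01 ± 0.18 (adjusted p = 0.0421, limma), and 56.8% of its GBS change lay beyond the sum. These calls were fragile: with 1 array left out, Lef1 kept its call in the fits without any 1 GBS array or without GB replicate 2 and missed it in the other 8 (adjusted p up to 0.0828), and Axin2 kept it without GBS replicate 1 or GB replicate 2 and missed it in the other 10 (up to 0.138).

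Tnfrsf19, a membrane receptor of the TNF receptor family and a known WNT target, read 8.30, 8.59 and 8.29 in GBS against 7.32, 7.15 and 7.32 in GB, 6.73, 6.81 and 6.85 in GS, and 6.86, 6.88 and 6.94 in Control. The replicates were tight within each genotype, and the contrast of 1.22 ± 0.14 (adjusted p = 0.00476, limma) was kept without any single array. Sostdc1, a secreted antagonist of both BMP and WNT ligands, read 8.47, 9.28 and 9.33 in GBS, 7.45, 7.05 and 7.51 in GB, 6.58, 6.75 and 6.53 in GS, and 6.83, 6.79 and 7.06 in Control. Here GB overlapped Control and GS lay below it, and the contrast was 1.97 ± 0.30 (adjusted p = 0.0261, limma). Sostdc1 missed its call in 9 of the 12 fits that left out 1 array. Apcdd1, a membrane inhibitor of WNT signalling, stood 1.25 above the sum and Tspan12, a tetraspanin of the Frizzled-4 receptor complex, 1.20. Tspan12 differed from the other WNT genes in that GS and GB were both slightly above Control, by 0.23 and 0.13, without passing the test.

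Across a separate list of WNT targets and regulators, 6 of 27 tested genes were above the sum and 0 below, beside 0.324% and 0.00704% of all genes. The 6 were Wif1, Lef1, Axin2, Tnfrsf19, Apcdd1 and Bmp4. Sostdc1 and Tspan12 were not on this list, and Bmp4 is also counted in the BMP list. The list median was 0.18 against -0.03 for all genes, 18 of the 27 contrasts were positive, and at an unadjusted p under 0.05 there were 11 above and 1 below, beside 687 and 471 of all 14195. Nkd1, an intracellular inhibitor of Dishevelled, came close with 1.46 (adjusted p = 0.0633), followed by Notum, an enzyme that inactivates WNT ligands, with 0.67 (0.109) and Znrf3, a ubiquitin ligase that removes Frizzled receptors, with 0.81 (0.155), all from limma and named after their values were seen. The WNT ligand genes Wnt3a, Wnt7b and Wnt8b, also picked with values in view, had contrasts of -0.17, -0.17 and 0.08, and Sp8, a zinc finger factor, had -0.41. Ctnnb1 itself read 8.86, 9.19 and 8.93 in GBS, 8.85, 8.76 and 8.41 in GS, 8.18, 7.56 and 8.35 in GB, and 8.13, 8.22 and 7.89 in Control. Its contrast of 0.37 ± 0.28 did not pass (adjusted p = 0.788, limma), and no source used here says whether its probes fall on the deleted exon.

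Ptch1, the SHH receptor and a direct GLI target, was the 1 gene of the SHH list above the sum, of 18 tested. It read 9.40, 9.74 and 9.38 in GBS, 8.57, 8.62 and 8.46 in GS, 6.96, 7.12 and 7.28 in GB, and 7.17, 7.12 and 7.08 in Control. Both SmoM2 genotypes stood above the rest without overlap, and the GBS arrays stood above the GS arrays, although GB overlapped Control. SmoM2 alone raised Ptch1 by 1.43 ± 0.12 (adjusted p = 0.00164, limma), and the same allele with stabilised beta-catenin raised it by 2.39 ± 0.12 over GB. The contrast was 0.96 ± 0.17 (adjusted p = 0.0424), close to the threshold, and it was kept without GB replicate 2 or GB replicate 3 but missed in the other 10 fits that left out 1 array (adjusted p up to 0.166).

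No other SHH gene passed the test, the list median was 0.18, and 6 of the 18 were above and 1 below at an unadjusted p under 0.05. Gli1, the GLI factor that is itself a target, read 8.11, 8.07 and 7.98 in GBS, 7.61, 7.51 and 7.80 in GS, 7.56, 7.99 and 7.63 in GB, and 7.64, 7.67 and 7.91 in Control. GBS had the highest mean but overlapped GB, GS overlapped Control, and the contrast was 0.42 ± 0.18 (adjusted p = 0.591, limma). Gli3, named after its values were seen, had 0.64 (0.141), and Hhip, a membrane protein that sequesters SHH, had -0.06 (0.939). Smo had 0.16 ± 0.15 (0.807). Without GB replicate 2, GS replicate 3 and Control replicate 3, which an earlier analysis of these data had seen to deviate together, limma also called Gli1 and Gli3.

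**Figure D3:**
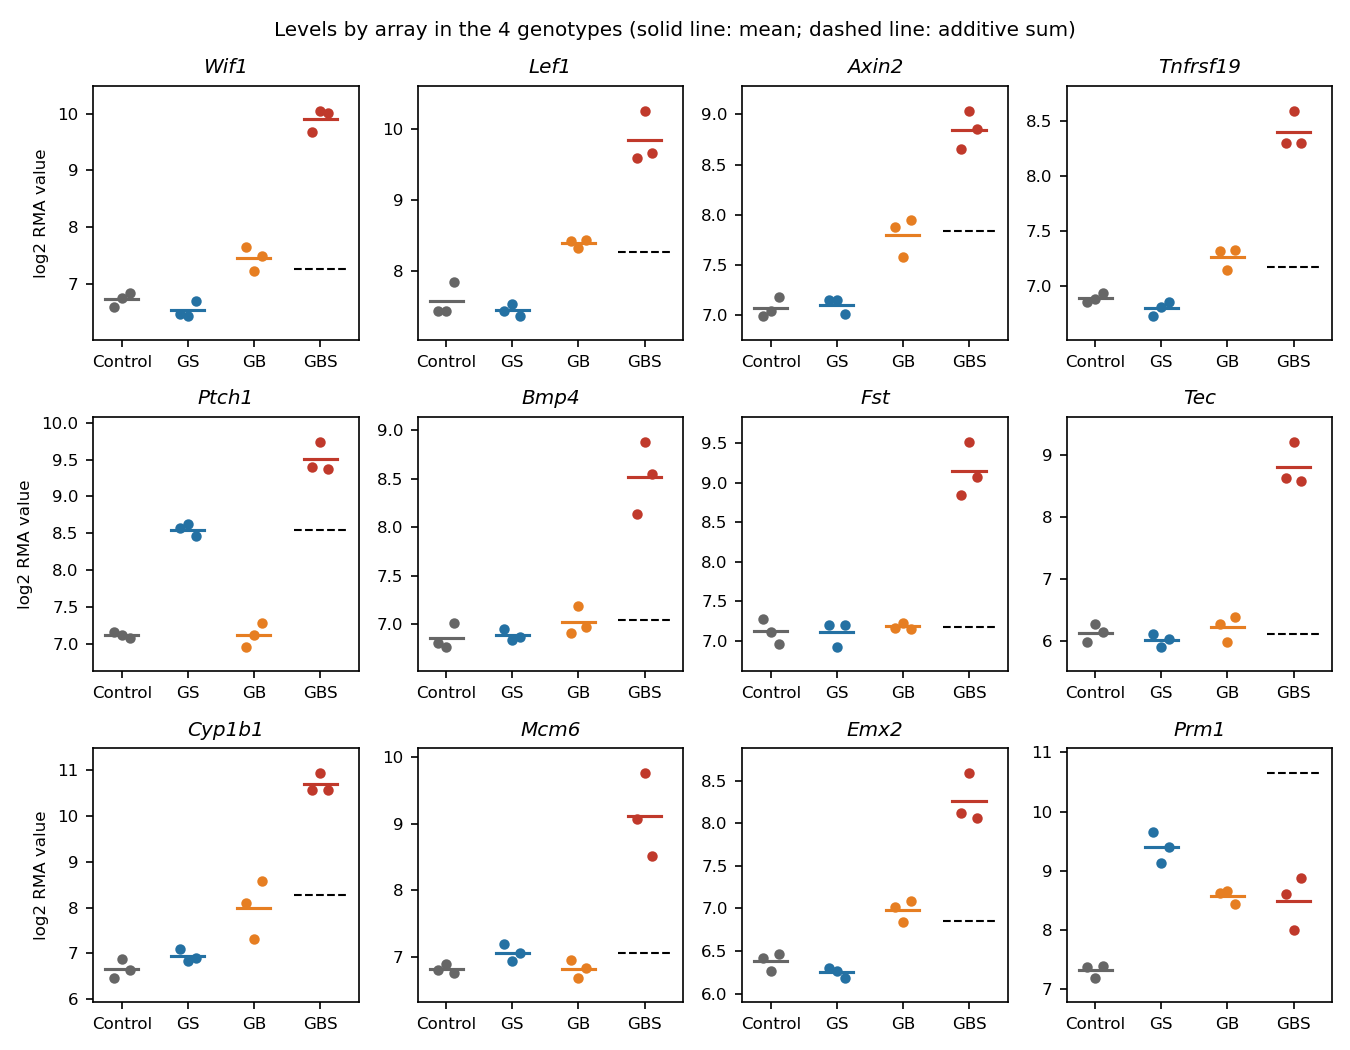
Points are the log2 values of 12 genes on each of the 12 arrays by genotype, solid lines are genotype means (n = 3) and the dashed line over GBS is the level the additive sum predicts. In 11 panels all 3 GBS points lie above the dashed line, and in the panel of Prm1 all 3 lie below it.

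Of the BMP and activin genes, Fst, a secreted protein that traps activin, differed from Control by 0.06 in GB and -0.01 in GS. Fst read 8.84, 9.52 and 9.06 in GBS against 7.17, 7.23 and 7.15 in GB, 7.20, 6.93 and 7.20 in GS, and 7.28, 7.12 and 6.96 in Control. The 9 arrays of GB, GS and Control formed 1 overlapping cloud, and 97.5% of the GBS change lay beyond the sum (contrast 1.97 ± 0.23, adjusted p = 0.00476, limma). Bmp4, a ligand of the dorsal midline, read 8.14, 8.88 and 8.54 in GBS, 6.91, 7.18 and 6.97 in GB, 6.95, 6.83 and 6.87 in GS, and 6.80, 6.77 and 7.01 in Control, with the same flat background and a contrast of 1.48 ± 0.23 (0.0261). Bmp4 missed its call in 9 of the 12 fits that left out 1 array. Tll1, a protease that frees BMPs from their antagonist chordin, stood 1.79 above the sum and Gpc4, a heparan sulfate proteoglycan of the cell surface, 1.09. Bmp4 was the 1 called gene among 16 tested in the BMP list, whose median was 0.04, with 3 above and 0 below at an unadjusted p under 0.05. The choroid plexus and cortical hem list, 17 genes, held Bmp4 and Sostdc1 above the sum, with 4 above and 1 below at an unadjusted p under 0.05. Ttr, the defining transcript of choroid plexus, read 5.63, 5.93 and 5.72 in GBS and 5.79, 6.39 and 10.21 in GB. It read 9.92, 9.49 and 6.08 in GS, and 6.03, 5.90 and 9.96 in Control. High Ttr values thus fell on some arrays of GB, GS and Control and on no GBS array. The contrast of -2.91 did not pass (adjusted p = 0.767, limma). Clic6, a chloride channel protein of choroid plexus, had a contrast of 2.02 that did not pass (adjusted p = 0.0528, limma).

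The gene farthest above the sum was Tec, a cytoplasmic tyrosine kinase best known from blood cells. Tec read 8.64, 9.22 and 8.58 in GBS, 6.27, 5.98 and 6.39 in GB, 6.11, 5.90 and 6.03 in GS, and 5.98, 6.26 and 6.14 in Control. All 9 other arrays lay between 5.90 and 6.39, and the alleles multiplied predicted 0.981-fold where 6.44-fold was seen. Those 9 values are dim, and whether small changes with 1 allele were missed was not tested. The contrast was 2.71 ± 0.24 (adjusted p = 0.00174, limma) and held without any single array (highest adjusted p 0.00942). Markers of microglia, the immune cells of the brain, were lower in GBS: the mean level of 12 such genes was 6.60 to 6.70 in GBS and 6.84 to 6.93 in Control, with 0 called in the contrast (0 above and 3 below at an unadjusted p under 0.05).

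Cyp1b1, a cytochrome P450 that oxidises steroids and retinoids, had the largest GBS change of the 46, 16.2-fold over Control. Cyp1b1 read 10.56, 10.94 and 10.56 in GBS, 8.09, 7.32 and 8.58 in GB, 7.09, 6.85 and 6.91 in GS, and 6.47, 6.88 and 6.65 in Control. GB arrays were raised but scattered, GB replicate 2 lowest among them, and the sum already predicted 3.06-fold. The contrast was 2.41 ± 0.37 (adjusted p = 0.0261, limma), or 2.07 without GB replicate 2. Its call was missed in 9 of the 12 fits that left out 1 array. Dcn, a proteoglycan of meninges and fibroblasts, had a like profile, 10.63 to 10.67 in GBS, 7.35 to 8.85 in GB, 6.43 to 7.68 in GS and 6.36 to 7.46 in Control, but its contrast of 2.08 ± 0.59 did not pass (0.273). The 12 meningeal and fibroblast genes tested had 0 called (1 above and 5 below at an unadjusted p under 0.05), a median of -0.16, a mean level of 7.22 to 7.42 in GBS against 7.05 to 7.34 in Control. Col1a1 read 7.83 to 8.01 in GBS and 8.05 to 8.26 in Control.

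Promoters of 4 of these genes hold the letters bound by the factors at the end of the 2 pathways, and they are shown because the alleles act through those factors. Each line gives the 250 bases before and the 50 after the RefSeq start on GRCm38.p6, 5′ to 3′ on the strand of the gene, with the match in capitals. Tec lies at chr5:72868399-72868698 (minus strand), Tnfrsf19 at chr14:61037938-61038237 (minus strand, 1 of 2 starts) and Lef1 at chr3:131156044-131156343 (plus strand, 1 of 4 starts). Capitals in these mark the TCF/LEF letters CTTTGA, which in Tnfrsf19 and Lef1 lie on the opposite strand and so read TCAAAG. Cyp1b1 lies at chr17:79715012-79715311 (minus strand), with the GLI letters GACCACCC in capitals.
Tec: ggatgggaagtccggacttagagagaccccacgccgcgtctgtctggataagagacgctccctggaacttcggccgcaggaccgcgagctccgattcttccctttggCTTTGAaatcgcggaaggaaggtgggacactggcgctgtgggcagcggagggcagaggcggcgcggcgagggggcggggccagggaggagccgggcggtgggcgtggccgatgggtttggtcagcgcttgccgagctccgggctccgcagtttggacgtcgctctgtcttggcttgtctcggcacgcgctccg
Tnfrsf19: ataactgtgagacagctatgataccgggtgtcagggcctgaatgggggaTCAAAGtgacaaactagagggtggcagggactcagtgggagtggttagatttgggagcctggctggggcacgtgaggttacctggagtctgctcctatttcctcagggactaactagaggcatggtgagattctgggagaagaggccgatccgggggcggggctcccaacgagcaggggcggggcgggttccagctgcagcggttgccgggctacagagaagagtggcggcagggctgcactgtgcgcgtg
Lef1: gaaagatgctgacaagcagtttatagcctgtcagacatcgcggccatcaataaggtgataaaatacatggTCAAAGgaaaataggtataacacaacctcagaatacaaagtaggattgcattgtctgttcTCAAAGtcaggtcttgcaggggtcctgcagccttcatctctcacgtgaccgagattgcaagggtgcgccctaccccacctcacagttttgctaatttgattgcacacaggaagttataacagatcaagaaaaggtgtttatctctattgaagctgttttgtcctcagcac
Cyp1b1: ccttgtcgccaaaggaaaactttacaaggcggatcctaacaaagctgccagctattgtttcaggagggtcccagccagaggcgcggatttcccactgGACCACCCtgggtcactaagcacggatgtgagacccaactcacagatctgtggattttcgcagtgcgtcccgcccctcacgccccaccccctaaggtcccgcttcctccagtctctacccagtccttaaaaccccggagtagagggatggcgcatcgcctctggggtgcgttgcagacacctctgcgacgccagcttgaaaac
Searched on both strands, CTTTGA occurred in 6 of the 33 genes above the sum that had a promoter in the table (18.2%) and in 14.5% of the 11220 tested genes with one. The other 3 were B3glct, Gm10400 and 6430548M08Rik. GACCACCC occurred in 1 of the 33, Cyp1b1 (3.03%), and in 1.05% of all, and the E box CAGCTG, a proneural factor motif that overlaps neither, in 6 of 33 (18.2%) and 18.9%. These shares are near those of all genes, and a match of letters is not a bound site.

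Cxcr4, the chemokine receptor that guides migrating neurons, read 9.18, 9.61 and 9.36 in GBS, 7.85, 7.25 and 7.65 in GB, 7.11, 7.22 and 7.29 in GS, and 7.33, 7.13 and 7.02 in Control. GBS stood clear of the rest and GB partly overlapped GS and Control (contrast 1.75 ± 0.23, adjusted p = 0.01005, limma). Other signalling genes above the sum were Adgrv1, a very large adhesion receptor, with 2.11, Pde3a and Pde5a, phosphodiesterases of cyclic nucleotides, with 1.57 and 0.97, and Fgd6, a guanine nucleotide exchange factor, with 1.28. Gab1, a docking protein of receptor kinases, had 0.96, Dock1, an activator of Rac, 0.97, Rgs9, a brake on G proteins, 0.92, and Heg1, a surface protein of endothelial junctions, 1.20. Adgrv1 read 9.33, 9.78 and 9.04 in GBS, 6.86, 6.30 and 6.74 in GB, 6.87, 6.67 and 6.58 in GS, and 6.23, 5.93 and 6.02 in Control. Both single genotypes of Adgrv1 were thus above Control and the sum predicted 2.33-fold, where 10.03-fold was seen. For Heg1 the second probe set gave 0.47 (adjusted p = 0.686) against 1.20 in the probe set used, so its call rests on 1 of 2.

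Of 18 endothelial and pericyte genes 0 were called (0 above and 2 below at an unadjusted p under 0.05). They had a mean level of 6.74 to 6.82 in GBS and 6.79 to 6.89 in Control, and Cldn5 read 6.66 to 7.09 in GBS against 7.09 to 7.40 in Control.

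Among matrix and secreted genes, Adamts19, a metalloprotease, read 9.40, 9.72 and 9.62 in GBS, 7.82, 6.76 and 7.79 in GB, 6.16, 6.08 and 6.50 in GS, and 6.40, 6.21 and 6.53 in Control. GBS was tight and far above, and GB was split, with GB replicate 2 well under the other GB arrays. The contrast was 2.26 ± 0.35 (adjusted p = 0.0261, limma), or 1.91 without GB replicate 2. Egfl6, a secreted protein with EGF repeats, stood 1.57 above the sum, Antxr1, a collagen-binding receptor, 1.34, Layn, a hyaluronan receptor, 1.32, Masp1, a complement protease, 0.86, and Crispld1, a secreted cysteine-rich protein, 0.69. In the broader list of matrix genes and their enzymes Adamts19 was the 1 called gene of 28 tested, with 2 above and 3 below at an unadjusted p under 0.05 and a median of -0.04.

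Emx2, a transcription factor of dorsal cortex and hem, read 8.12, 8.60 and 8.07 in GBS, 7.01, 6.84 and 7.08 in GB, 6.30, 6.27 and 6.18 in GS, and 6.42, 6.26 and 6.47 in Control. GB was raised, GS was at or just under Control, and GBS exceeded both (contrast 1.41 ± 0.19, adjusted p = 0.0125, limma). It was the 1 called gene of 21 tested progenitor and radial glia genes, whose median was -0.03. At an unadjusted p under 0.05 the list had 3 above and 0 below. Other members, named with values in view, spread widely without passing the test: Prom1, a membrane protein of progenitors, had a contrast of 1.31, Pax6, a factor of cortical radial glia, 0.97, Vim 0.56, Slc1a3 0.34, Sox2 -0.12 and Fabp7 -1.14 (adjusted p = 0.0538, 0.214, 0.613, 0.773, 0.882 and 0.696, limma). Pax6 read 8.002, 8.70 and 7.99 in GBS and at most 7.17 on the other 9 arrays.

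Mcm6, a subunit of the helicase that opens DNA for replication, read 9.07, 9.76 and 8.51 in GBS, 6.95, 6.68 and 6.82 in GB, 7.19, 6.93 and 7.06 in GS, and 6.80, 6.90 and 6.76 in Control. GS arrays lay just above the Control arrays, GB overlapped Control, and GBS stood far above all and was the most scattered genotype (contrast 2.05 ± 0.34, adjusted p = 0.0303, limma). That call was missed in 9 of the 12 fits that left out 1 array. Mcm6 was the 1 called gene of 26 replication genes, of which 22 had a positive contrast and 9 lay above and 0 below at an unadjusted p under 0.05, with a median of 0.29. Baz1a, a chromatin remodelling subunit, stood 1.40 above the sum, Gadd45a, a stress gene that slows the cell cycle, 1.46, Cep112, a centrosome protein, 1.88, and Tex15, a germ cell gene, 1.09.

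Mitosis genes went further as a group than as single genes. None of 28 passed the test with all 12 arrays, yet all 28 had a positive contrast, 20 at an unadjusted p under 0.05, and the median was 1.10 against -0.03 for all genes. The mean level of the 28 was 6.41 to 6.52 in Control, 6.34 to 6.61 in GB, 6.77 to 7.12 in GS and 7.59 to 8.47 in GBS. GS thus stood between Control and GBS, and GBS arrays differed from each other by more than the GS arrays did from Control. Kif23, a kinesin of cytokinesis, read 7.76, 8.34 and 7.54 in GBS, 6.70, 6.51 and 6.89 in GS, 6.49, 6.30 and 6.31 in GB, and 6.31, 6.46 and 6.38 in Control (contrast 1.20 ± 0.25, adjusted p = 0.107, limma). Bub1, a spindle checkpoint kinase, had 1.80 ± 0.38 (0.107). Mitosis genes vary together from tissue to tissue, so the 28 signs are not independent.

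The other genes above the sum were Cavin2, a coat protein of caveolae, with 2.33, Clstn2, a synaptic calsyntenin, with 1.24, Rai14, an actin-bound protein, with 0.95, and Fam135b with 1.06. Fbxo32, a ubiquitin ligase subunit, stood 1.36 above the sum and B3glct, a glucosyltransferase of the secretory pathway, 0.95. The 5 clone names and predicted genes were 5530401A14Rik (2.48), Gm10400 (1.95), 2700046A07Rik (1.79), A730049H05Rik (1.28) and 6430548M08Rik (0.78). Fam135b had 5 probe sets with contrasts of 1.06 to 2.31, of which the one used was the lowest.

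Several of the 46 are next to each other in the genome. In RefSeq gene order among 14148 placed tested genes, 9 of the 46 (19.6%) neighboured another gene above the sum, where 0.643% of all tested genes did. The pairs were Mcm6 and Cxcr4, Cep112 and Axin2, Axin2 and Rgs9, Apcdd1 and 2700046A07Rik, and Pde3a and Gm10400. Pde3a and Gm10400 overlap, so their probe sets may read shared transcripts, and the other pairs do not overlap. The next genes outward were not called: Lct beside Mcm6 had -0.09, Thsd7b beside Cxcr4 0.45, Prkca beside Cep112 -0.24 and Gm11696 beside Rgs9 -0.05. Shared control of these neighbours was not tested.

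Below the sum stood Prm1, a protamine that packs DNA in sperm and is not a known forebrain gene. Prm1 read 7.37, 7.18 and 7.38 in Control, 9.66, 9.13 and 9.39 in GS, 8.62, 8.66 and 8.43 in GB, and 8.60, 7.99 and 8.87 in GBS. All 9 arrays with Cre stood above the 3 without it, GS was highest, and GBS overlapped GB. Multiplied, the singles predict 10.2-fold over Control and 2.26-fold was seen, a contrast of -2.17 ± 0.29 (adjusted p = 0.0112, limma) that held without any single array (up to 0.0468). The change from GS to GBS was -0.91 (adjusted p = 0.0283, limma) and that from GB to GBS -0.08 (0.738). The level was thus higher in each of the 3 genotypes with Cre, a shape of 0.74% of tested genes. No source used here says whether the Cre transgene carries Prm1 sequence, and this was not tested.

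The next genes below the sum did not pass: Tub, a gene of neurons and ciliary transport, had -0.74 (adjusted p = 0.0667), Rep15, a RAB15 effector, -0.63 (0.0683), Plce1, a phospholipase C, -0.71 (0.0850) and Adhfe1, a mitochondrial dehydrogenase, -0.63 (0.0928), all from limma. Tub read 6.58, 6.41 and 6.76 in GBS, 7.13, 7.12 and 6.99 in GB, 7.17, 7.25 and 7.10 in GS, and 6.94, 6.90 and 6.94 in Control. Each single genotype of Tub was a little above Control and GBS was under it, without overlap. On the upper side Masp1 and Rai14 were the last genes inside the threshold (both 0.0443), and Armh4 with 1.82 (0.0515), Clic6 with 2.02 (0.0528) and Prom1 with 1.31 (0.0538) the first outside it.

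Neuronal lists leaned below the sum with no gene called. In 28 postmitotic neuron genes the median was -0.36, with 4 positive and 5 below at an unadjusted p under 0.05, and the nearest were Camk2b, a synaptic kinase subunit, with -0.60 (adjusted p = 0.265, limma) and Mapt, the microtubule protein tau, with -0.69 (0.321). Subpallial and interneuron genes had a median of -0.29, with 1 of 26 positive, and Dlx1 and Dlx6, homeobox factors of interneurons, had -1.03 (0.137) and -1.12 (0.216, with 0 above and 5 below at an unadjusted p under 0.05 in the list). Dlx6 read 8.81, 9.15 and 8.87 in GS, 8.37, 8.57 and 7.98 in Control, 8.03, 7.59 and 8.24 in GB, and 7.75, 7.22 and 7.43 in GBS. SmoM2 alone thus sat above Control and GBS below it. The GS change of 0.64 did not pass (adjusted p = 0.645, limma), and the GBS change of -0.84 did (0.0222). Cortical layer genes had a median of -0.27 with 3 of 16 positive and 1 gene on either side at an unadjusted p under 0.05. Fewer neurons and less RNA per neuron cannot be told apart in such bulk tissue.

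Astrocyte, oligodendrocyte and ependymal lists had 0 called and medians of -0.25, -0.24 and -0.17, with 0 above and 4, 3 and 2 below at an unadjusted p under 0.05. Notch genes, 14 of them, had a median of -0.08 and none past that looser limit, and LIN28-linked oncofetal genes had a median of -0.14 and 2 below it, with Lin28a at -0.05 ± 0.17 (adjusted p = 0.942, limma). Lin28a, an RNA-binding protein whose raised level marks the human tumor (embryonal tumor with multilayered rosettes), read 6.74, 6.52 and 6.73 in GBS and 7.05, 6.98 and 7.18 in Control, and its contrast changed sign under other settings. Splicing factors (28 genes, 28 positive, median 0.64), ribosomal proteins (0.32) and respiratory chain genes (0.33) leaned above the sum with 0 called, and 1, 0 and 0 of them were above it at an unadjusted p under 0.05. The mean level of the splicing genes ran from 7.71 to 9.07 over the GB arrays alone. Without GB replicate 2 the 3 medians were 0.19, 0.16 and 0.07, and without GB replicate 2, GS replicate 3 and Control replicate 3 they were 0.19, 0.17 and -0.02. In the fit without those 3 arrays the mitosis median was 1.09 with 3 of 28 called above (Ccnb2, Prc1 and Kif23), and that of postmitotic neurons was -0.72 with 6 of 28 called below, among them Mapt, Syt1 and Nefl. With array weights limma called 15 mitosis genes above and 10 postmitotic neuron genes below.

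**Figure D4:**
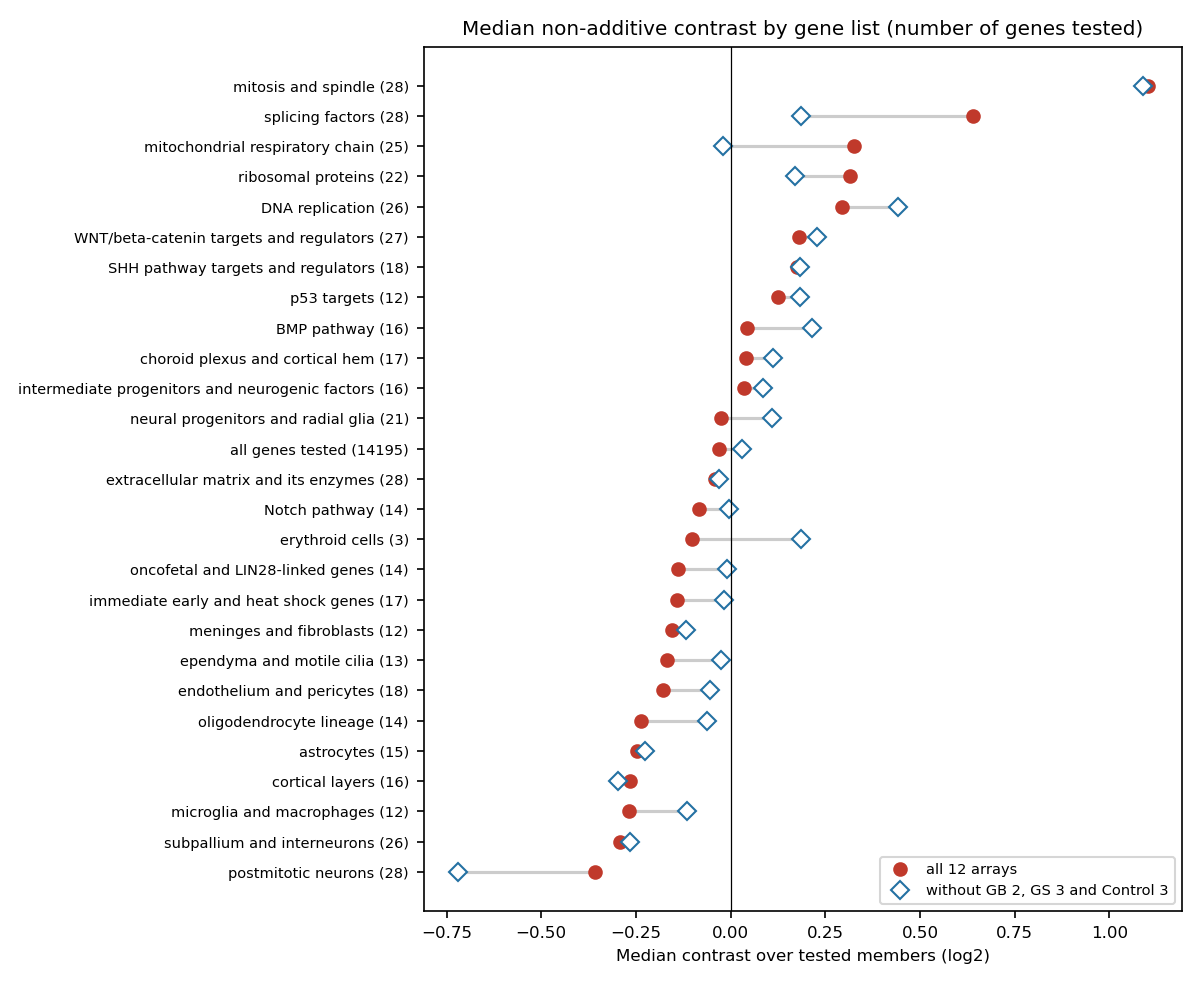
Median contrast of each gene list (log2, number of tested genes in brackets) with all 12 arrays (filled circles) and without GB replicate 2, GS replicate 3 and Control replicate 3 (open diamonds). The mitosis median stays near 1.1, the splicing median drops from 0.64 to 0.19 and the neuron median goes from -0.36 to -0.72.

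The balance of the calls, 46 above and 1 below, depended on which arrays were fitted. Without those 3 arrays limma called 120 genes above and 293 below, with all 46 still among the 120. That fit kept GBS replicate 1, whose deviations from its group mean correlated with those of GS replicate 3, GB replicate 2 and Control replicate 3. The correlations were 0.507, 0.516 and 0.446, so a deviation of that kind was left in GBS. Leaving out 1 array gave 14 to 56 genes above and 1 to 4 below: 52, 27 and 26 above without GBS replicates 1, 2 and 3, 18, 14 and 23 without GS replicates 1, 2 and 3, 22, 56 and 31 without GB replicates 1, 2 and 3, and 15, 18 and 16 without Control replicates 1, 2 and 3. In 14 genes the call held in all 12 of these fits and in 32 it was missed in at least 1, with the contrast positive throughout. Most of the 32 missed the call in 7 or more of the 12 fits. The misses ran from 2 fits in Gpc4 and A730049H05Rik to all 12 in Masp1. Wif1, Tec, Tll1, Fst, Tnfrsf19, Pde3a, Egfl6, Layn, Adgrv1, Gm10400, 5530401A14Rik and 2700046A07Rik were called in all 23 alternative fits apart from those that used Xist. GBS replicate 2 was the highest GBS array in 35 of the 46 genes, against 36.1% of all tested genes, and GB replicate 2 the lowest GB array in 33, against 36.0%.

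**Figure D5:**
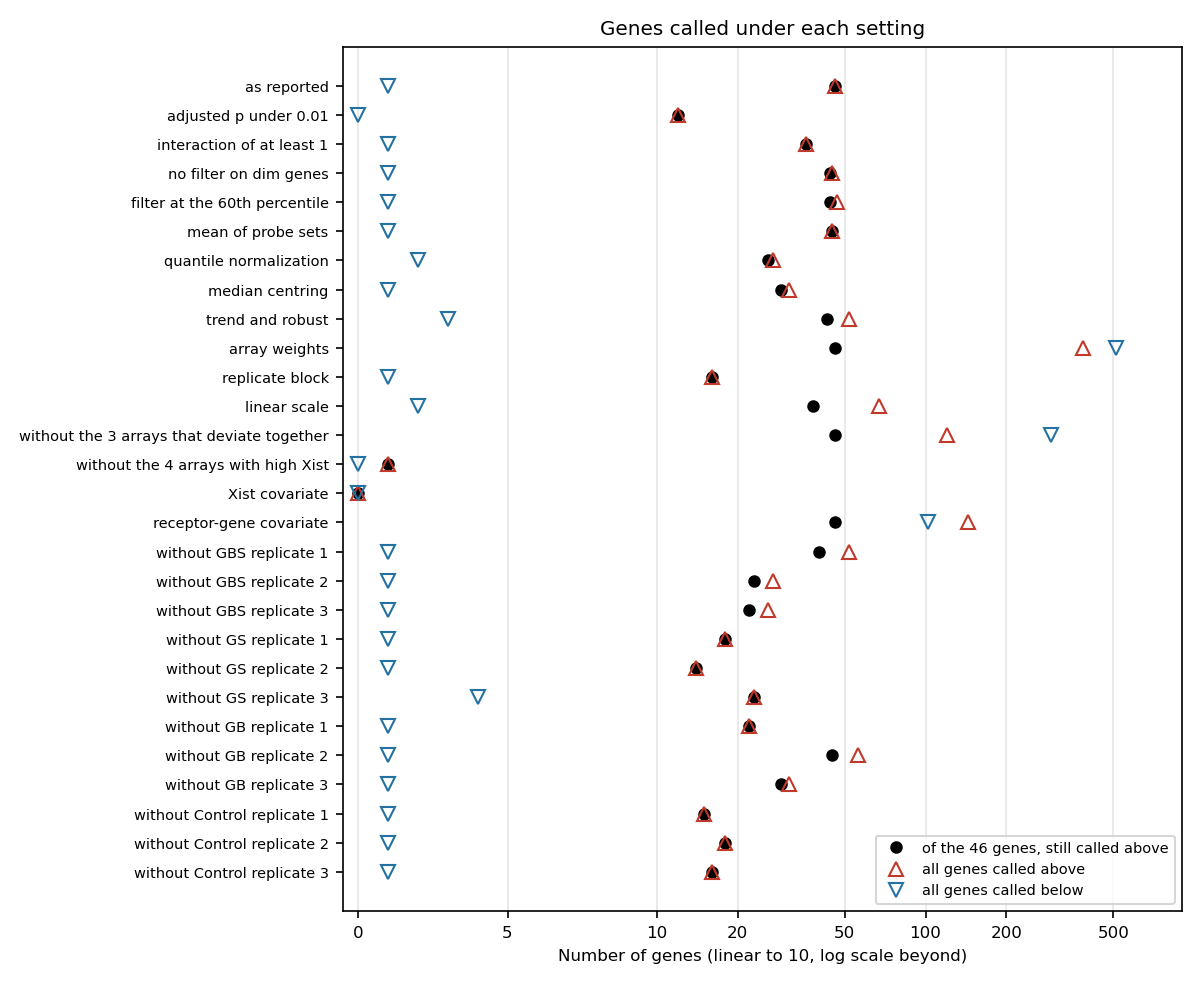
Number of genes called under each setting (x axis linear to 10 and logarithmic beyond): filled circles are those of the 46 still called, open upward triangles all genes above the sum and open downward triangles all genes below. The filled circles lie between 12 and 46 except in both fits that used Xist, with 1 and 0.

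Sex genes differed between the arrays along the contrast. Xist, expressed from the inactive X of females, read 10.83 and 10.28 in GS replicates 2 and 3, 8.66 and 10.53 in GB replicates 2 and 3, and at most 5.02 on the other 8 arrays, which include all GBS and Control arrays. Of 5 tested Y-linked genes and Xist together, 3 had a positive contrast: Eif2s3y 4.32, Kdm5d 2.16 and Uty 2.83. None of these passed (adjusted p = 0.435, 0.483 and 0.273, limma), though Eif2s3y and Uty exceeded the contrast of Tec. With the Xist level of each array as a covariate limma called 0 genes either way (244 above and 207 below at an unadjusted p under 0.05), and without the 4 high arrays it called Wif1 alone above and 0 below (464 and 831). In the 46 genes, chosen by their contrast in the full fit, the median contrast was 1.37 with the covariate and 1.34 without the arrays. It was 1.35 in the full fit, and all 46 stayed positive. Their median standard error went from 0.195 to 0.284 with the covariate and 0.254 without the arrays, where GS and GB kept replicate 1 alone. Prm1 had -2.53 with the covariate (adjusted p = 0.159, limma) and -2.49 without the arrays. High Xist fell on GS and GB arrays only. The Xist level was thus partly aligned with the contrast, and the 2 cannot be fully told apart.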

How the data were processed

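RNA of 12 samples, all titled forebrain and 3 of them also labelled tumor, was hybridised to Affymetrix Mouse Gene 1.0 ST arrays, 1 per biological replicate. The authors deposited log2 values that the submitters' processing notes trace to RMA and Affymetrix Expression Console. The scale was read from their range, 2.82 to 13.83. Array medians ran from 6.52 to 6.69, and no array copied another (smallest median absolute difference of a pair 0.102). The sources used here name no software version, build or annotation, and depth has no meaning for arrays, where their number limits precision.

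Of 35556 probe sets, 21789 had 1 symbol in the platform annotation, 1621 several and 12146 none, and 21698 symbols were updated through RefSeq GRCm38.p6, which also gave promoter sequences and gene order. The probe set with the highest mean was kept per gene, and a gene was tested if at least 3 arrays placed it above their 40th percentile. Genotype means were fitted with limma 3.58.1 in R 4.3.3 (8 residual and 2.9 prior degrees of freedom), two-sided, Benjamini-Hochberg over 14195 genes, threshold 0.05. Standard errors stand beside contrasts, and scripts were tested on simulated data.

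The contrast, gene lists and naming rule were chosen with earlier results of these data known. Named are Ptch1, Gli1, Axin2, Lef1, Smo, Ctnnb1 and Lin28a, the 15 called genes farthest above the sum, up to 4 called genes per list (or 2 nearest where none was called) and the 5 lowest p below. All others, and the grouping by role, were chosen with values seen. Alternatives covered the filter, probe sets, normalization, scale, limma settings, covariates, the replicate number as a block and leaving out arrays; each probe set on its own was added later. Because nothing in the labels ties arrays to litters, p-values measure the spread between these samples.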

Additional observations from a re-analysis of the deposited data

Results flagged for a closer look

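Each of the 47 genes is listed because its GBS level differed from the additive sum in the interaction test. An effect of Cre itself, missing from Control alone, would enter the same contrast and cannot be told apart. Values are the contrast on the log2 scale, with adjusted p under 0.05 in limma. WNT pathway genes had contrasts of Wif1 2.64, Sostdc1 1.97, Lef1 1.57, Apcdd1 1.25, Tnfrsf19 1.22, Tspan12 1.20 and Axin2 1.01. The SHH receptor gene had Ptch1 0.96. BMP and activin genes had Fst 1.97, Tll1 1.79, Bmp4 1.48 and Gpc4 1.09. Matrix and secreted genes had Adamts19 2.26, Egfl6 1.57, Antxr1 1.34, Layn 1.32, Masp1 0.85 and Crispld1 0.69. Signalling genes had Tec 2.71, Adgrv1 2.11, Cxcr4 1.75, Pde3a 1.57, Fgd6 1.28, Heg1 1.20, Dock1 0.97, Pde5a 0.97, Gab1 0.96 and Rgs9 0.92. Enzyme genes had Cyp1b1 2.41, Fbxo32 1.36 and B3glct 0.95. Genes of the nucleus and of cell division had Mcm6 2.05, Cep112 1.88, Gadd45a 1.46, Emx2 1.41, Baz1a 1.40 and Tex15 1.08. Membrane and cytoskeleton genes had Cavin2 2.33, Clstn2 1.24, Fam135b 1.06 and Rai14 0.95. Clone names and predicted genes had 5530401A14Rik 2.48, Gm10400 1.95, 2700046A07Rik 1.79, A730049H05Rik 1.28 and 6430548M08Rik 0.78. Below the sum was Prm1 -2.17. No explanation of these differences was tested.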

How the results depend on the processing

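The contrasts of the 46 genes stayed positive in every alternative fit that tested them (a filter at the 60th percentile tested 44), and the number called moved. Above and below the sum stood 12 and 0 genes at an adjusted p under 0.01, 27 and 2 after quantile normalization, 387 and 512 with array weights, 144 and 102 with the receptor-gene median as covariate, 120 and 293 without GB replicate 2, GS replicate 3 and Control replicate 3, 1 and 0 without the 4 arrays with high Xist, and 0 and 0 with Xist as covariate. The receptor genes of that covariate are 1196 olfactory and vomeronasal receptor genes, with their median taken on each array. Leaving out 1 array gave 14 to 56 above and 1 to 4 below. Limma's trend and robust settings gave 3 below, and effects summed on the linear intensity scale 2 below. With the replicate number as a block 16 of the 46 were called and no other gene above. Of 18 same-numbered pairs of arrays, 7 had deviations that correlated over 0.1, and the range was -0.818 to 0.739. Across numbers, GB replicate 2 correlated with GS replicate 3 at 0.833 and with Control replicate 3 at 0.801. Such shared deviations can hide a smaller effect of pairing, so these values cannot show whether the numbers pair the samples. Filters on dim genes, the mean of probe sets, centring on the median and a limit of 1 on the contrast kept both counts within 1.5 times. The interaction of Lin28a, near 0, turned to 0.059 with array weights, 0.010 without the 3 arrays, 0.193 without the high-Xist arrays, 0.115 with Xist and 0.029 with the receptor genes as covariate, and ran from -0.144 to 0.073 with 1 array left out. The cause was not tested. Arrays give no read depth, and dim probe sets limit the smallest fold that can be seen.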

Other observations

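The 7691 probe sets that carried more than 1 gene, or none, and passed the same filter gave 0 calls above and 0 below the sum in limma, with 215 above and 315 below at an unadjusted p under 0.05.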
